A study of Drosophila melanogaster with 6 samples.

Results

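The 10 glycolytic enzymes examined here carry fructose 6-phosphate to pyruvate and lactate. They are phosphofructokinase (Pfk), aldolase (Ald1), triose phosphate isomerase (Tpi), the glyceraldehyde 3-phosphate dehydrogenases Gapdh1 and Gapdh2, phosphoglycerate kinase (Pgk), phosphoglycerate mutase (Pglym78), enolase (Eno), pyruvate kinase (Pyk) and lactate dehydrogenase (Ldh). They were chosen by name from the pathway, with earlier results of these data known. All 10 were matched by FlyBase identifier among the 17558 identifiers of the count table and passed the filter on low counts. Gene counts came from males of a CR11538-overexpressing genotype (Gal80ts; Tub> CR11538) with 3 libraries, and of a control genotype, Gal80ts; Tub-Gal4/P{CaryP}attP40, also with 3. All were adults injected with M. luteus, whose peptidoglycan triggers Toll signalling, and all were taken at 12 h, with no uninfected library among them. Both genotypes carry the tubulin promoter driver, which is active in nearly all tissues, and the temperature-sensitive repressor Gal80ts, which keeps the driver silent until the flies are warmed. The controls have the empty attP40 landing site in place of the CR11538 transgene, which was inserted at that single site. The labels name no dissected tissue.

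Glycolysis splits a hexose into trioses and oxidises them to pyruvate, with ATP made at the Pgk and Pyk steps and NADH at the Gapdh step. In insects the pathway runs fastest in flight muscle, where the NADH is reoxidised mainly through a glycerol 3-phosphate shuttle (Gpdh1 in the cytosol, Gpo1 in the mitochondrion) rather than through Ldh. In Drosophila larvae many of these genes are driven by the estrogen-related receptor ERR, and activated immune cells are known to raise their use of glucose during infection.

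The libraries held 17040432 to 19652500 counts, of which the 10 enzymes took 0.771 to 0.856% in the controls and 0.909 to 1.24% under CR11538 overexpression. The targeted lncRNA itself had 2, 5 and 5 raw counts in the control libraries and 2291 to 3358 in the CR11538-overexpressing ones. CR11538-overexpressing replicates 1 and 3 differed more from each other than any other pair within a genotype (chi-square per gene of 35.6, against 6.95 to 18.1 for the other pairs), so the 10 enzymes are also given without them. The matched markers of muscle, fat body, gut, neurons, testis, accessory gland and hemocytes all had counts in every library. The hemocyte gene He, with 1 to 6 raw counts per library, fell below the filter. The muscle gene wupA and the fat body gene FASN1 were not matched. The study's methods describe 3 independent biological replicates throughout. What separates these libraries is not given by their labels, and the p-values measure the spread among them.

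Transcripts of 6 of the 10 enzymes rose under CR11538 overexpression, none fell, and 4 did not pass the test. Pfk, Tpi, Gapdh2, Pgk, Pglym78 and Pyk rose by 1.39- to 2.22-fold, whereas Ald1, Gapdh1, Eno and Ldh had fold changes of 1.08 to 1.34 that did not pass. Among all 13159 genes tested 15.0% were higher and 14.2% were lower (29.2% in either direction) by the same rule, an adjusted p under 0.05 in edgeR's quasi-likelihood test at any fold change. None of the 10 was lower at an unadjusted p under 0.05 in that test, and 8 were higher at that level. The share of all genes at that looser level was not counted, so the 8 cannot be set beside the 15.0%. DESeq2 likewise called 6 higher and none lower. All 10 fitted log2 fold changes were above 0, with a median of 0.49 beside -0.01 over all genes tested. With a fold over 2 asked for as well, Pglym78 alone was called, while 3.43% of all genes were higher and 1.23% lower past both thresholds. The libraries of the genotypes did not overlap for Pfk, Tpi, Gapdh2, Pglym78 and Pyk, 5 of the 10, beside 21.8% of all genes with the CR11538-overexpressing libraries above and 23.3% with them below. No enzyme had them below. In RNA from bulk tissue, more cells of a type and more RNA per cell cannot be told apart.

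**Figure D1:**
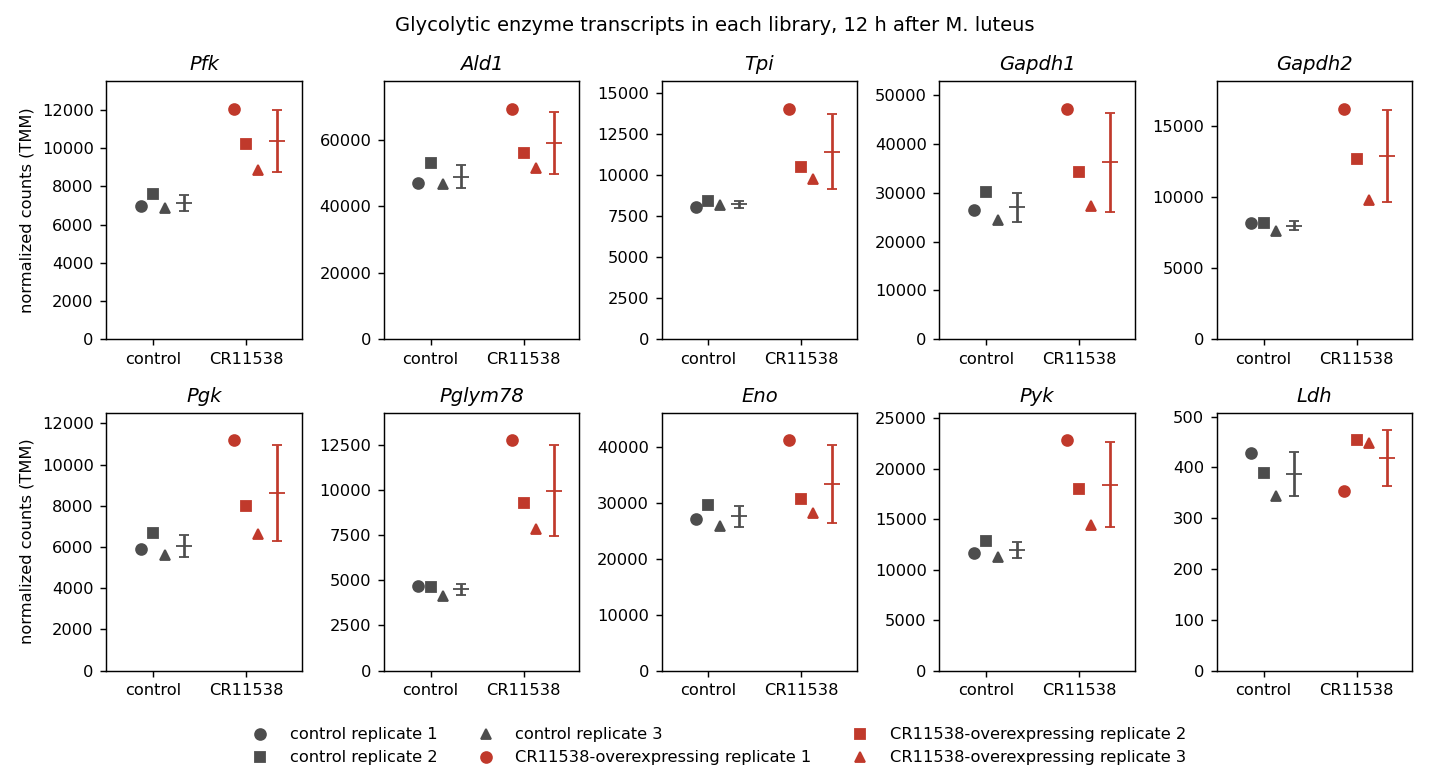
Normalized counts (TMM scaling, linear axes from 0) of each enzyme in the 3 control and 3 CR11538-overexpressing libraries, with the mean and SD of each genotype beside the points. CR11538-overexpressing replicate 1 is the highest library for 9 of the 10 enzymes, and Ldh is the exception.

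The steps from fructose 6-phosphate to the trioses were led by Pfk, which commits the sugar to glycolysis. Pfk (FBgn0003071) lies on chromosome 2R of dm6 from 10109740 to 10117457 on the plus strand. Its normalized counts, scaled by TMM to a common library size, were 6962, 7605 and 6852 in control replicates 1, 2 and 3 and 12080.5, 10207 and 8875 in the CR11538-overexpressing replicates. The lowest CR11538-overexpressing library was above the highest control. Pfk rose by a log2 fold change of 0.54 with a standard error of 0.11 (adjusted p = 0.00575, SD 407 around 7139 and 1610.5 around 10387, n = 3 each), with the smallest standard error of the 10. It was 0.42 without CR11538-overexpressing replicate 1 and 0.64 without replicate 3.
Ald1 (FBgn0000064, chromosome 3R, 26254069 to 26261591, minus strand) encodes the aldolase that cleaves fructose 1,6-bisphosphate. Its control libraries held 47125, 52913 and 46783 normalized counts and its CR11538-overexpressing libraries 69369.6, 56002 and 51409. The genotypes overlapped, since CR11538-overexpressing replicate 3 was below control replicate 2. The log2 fold change was 0.27 with a standard error of 0.12 (adjusted p = 0.120). It was 0.14 without CR11538-overexpressing replicate 1 (adjusted p = 0.245) and 0.36 without replicate 3 (adjusted p = 0.0341). An antisense RNA gene, CR44321, covers 338 bases of the Ald1 exons and had 12 to 24 raw counts in every library, against at least 43570 for Ald1.
Tpi (FBgn0086355, chromosome 3R, 30132981 to 30134599, minus strand) interconverts the trioses. It had 8032, 8428 and 8186 normalized counts in the controls, the tightest control values of the 10 enzymes, and 14061, 10480.0 and 9759 under CR11538 overexpression. No library overlapped, and Tpi rose by a log2 fold change of 0.48 with a standard error of 0.12 (adjusted p = 0.0180). Leaving out control replicate 1, 2 or 3 gave adjusted p of 0.0635, 0.0620 and 0.0598, with log2 fold changes of 0.46 to 0.49. Without CR11538-overexpressing replicate 1 the log2 fold change was 0.30 (adjusted p = 0.00606), and without replicate 3 it was 0.58.

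The Gapdh step is encoded by a pair of closely related genes on different chromosomes, whose reads may be shared where they are alike. Gapdh1 (FBgn0001091, chromosome 2R, 7791901 to 7793380, minus strand) had 26388, 30248 and 24389 normalized counts in control flies and 47265, 34194 and 27244 under CR11538 overexpression. CR11538-overexpressing replicate 3 lay within the control range, and the log2 fold change of 0.42 did not pass (standard error 0.18, adjusted p = 0.0996). Without that library it was 0.59 (adjusted p = 0.00665), and without replicate 1 it was 0.19 (adjusted p = 0.234).
Gapdh2 (FBgn0001092, chromosome X, 15868145 to 15869661, plus strand) had 8139, 8159 and 7618 normalized counts in control flies and 16191, 12656 and 9771 under CR11538 overexpression. Every CR11538-overexpressing library was above every control. Gapdh2 rose by a log2 fold change of 0.69 with a standard error of 0.15 (adjusted p = 0.00875), and it passed without any single library (adjusted p of 8.66e-05 to 0.0405). Its log2 fold change was 0.49 without CR11538-overexpressing replicate 1 and 0.85 without replicate 3.
The ratio of Gapdh2 to Gapdh1 levels per kilobase, which does not depend on library scaling, was 0.316, 0.277 and 0.320 in the controls and 0.351, 0.380 and 0.368 in the CR11538-overexpressing libraries. Gapdh1 thus remained the more abundant form in all 6 libraries, with a larger Gapdh2 part in the 3 CR11538-overexpressing ones. This ratio was chosen after the values had been seen and was not tested.
Pgk (FBgn0250906, chromosome 2L, 2746880 to 2753068, minus strand) makes ATP from 1,3-bisphosphoglycerate. Its normalized counts were 5877, 6665 and 5596 in the controls and 11182, 8008 and 6636 under CR11538 overexpression, so that the lowest CR11538-overexpressing library was just under the highest control. Pgk rose by a log2 fold change of 0.51 (standard error 0.16) at an adjusted p of 0.0427, the weakest of the 6 calls. The call was lost when any control library was left out (adjusted p of 0.114, 0.0779 and 0.138 for replicates 1, 2 and 3) and without CR11538-overexpressing replicate 2 (0.0698), and the log2 fold change was 0.28 without CR11538-overexpressing replicate 1 (adjusted p = 0.0496) and 0.66 without replicate 3.

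Pglym78 had the largest fitted change of the 10 enzymes. It encodes the mutase that turns 3-phosphoglycerate into 2-phosphoglycerate and lies on chromosome 3R from 29148248 to 29149901 on the plus strand (FBgn0014869). The controls had 4708, 4647 and 4127 normalized counts and the CR11538-overexpressing flies 12775, 9266 and 7874. The lowest CR11538-overexpressing library was far above the highest control. Pglym78 rose by a log2 fold change of 1.15 (standard error 0.15, 95% confidence interval 0.80 to 1.50, adjusted p = 0.000805), and by 0.93 without CR11538-overexpressing replicate 1 to 1.29 without replicate 3, the range over all single libraries left out.
Its near copy Pglym87 had 2096 ± 164 normalized counts in control flies and 2186 ± 156 under CR11538 overexpression (SD, n = 3 each, log2 fold change 0.06, adjusted p = 0.607). Reads of these copies may be shared, and the ratio of Pglym78 to Pglym87 per kilobase went from 1.83 to 2.32 in the controls to 3.61 to 5.16 under CR11538 overexpression.
Eno (FBgn0000579, chromosome 2L, 1724768 to 1729636, minus strand) makes phosphoenolpyruvate. It had 27168, 29599.6 and 25888 normalized counts in control flies and 41168, 30651 and 28087 under CR11538 overexpression. The genotypes overlapped, and the log2 fold change of 0.27 did not pass (standard error 0.14, adjusted p = 0.159). It was 0.09 without CR11538-overexpressing replicate 1 (adjusted p = 0.418) and 0.38 without replicate 3 (adjusted p = 0.0341). Rrp40 on the opposite strand covers 362 bases of the Eno exons and had 98 to 126 raw counts per library, against at least 24110 for Eno.
Pyk (FBgn0267385, chromosome 3R, 22367536 to 22372746, plus strand) makes pyruvate and ATP. Its normalized counts were 11693, 12861 and 11284 in the controls and 22823, 17994 and 14414 under CR11538 overexpression, with no overlap. Pyk rose by a log2 fold change of 0.62 with a standard error of 0.15 (adjusted p = 0.0113). Without control replicate 3 the adjusted p was 0.0502, just over the threshold. The log2 fold change was 0.44 without CR11538-overexpressing replicate 1 and 0.77 without replicate 3.

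Ldh, which reduces pyruvate to lactate, stood apart in level and in pattern. Ldh (FBgn0001258, chromosome 3L, 6259105 to 6262694, minus strand) had 429, 389 and 344 normalized counts in control flies and 354, 454 and 447 under CR11538 overexpression. The genotypes overlapped, with CR11538-overexpressing replicate 1 as the lowest of its group. The log2 fold change was 0.11 with a standard error of 0.12 (adjusted p = 0.525), and its 95% confidence interval ran from -0.16 to 0.38. A change of 2-fold in either direction lies outside that interval, which covers the spread of these 6 libraries only. The fitted value was 0.22 without CR11538-overexpressing replicate 1 (adjusted p = 0.149) and 0.06 without replicate 3 (adjusted p = 0.773). The raw counts behind these values were 320 to 462 per library.

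Per kilobase of exon the enzymes covered a wide range of levels. Gapdh1 was highest in the controls, at 973 ± 107 CPM (TMM-scaled) per kilobase (SD, n = 3), followed by Ald1 at 685 ± 48.2 and Eno at 395 ± 27.04. Gapdh2 (295 ± 11.3), Pyk (284 ± 19.5) and Tpi (281 ± 6.83) followed with overlapping libraries, so their order is not resolved. Pglym78 (211 ± 15.0), Pgk (153 ± 14.0) and Pfk (87.0 ± 4.95) came next without overlap, and Ldh was last at 10.6 ± 1.17. Among 12941 tested genes with an annotated length, Gapdh1 ranked 58 by mean level per kilobase over the 6 libraries, Pfk 834 and Ldh 6227.
In the CR11538-overexpressing flies Gapdh1 (1306 ± 366), Ald1 (825 ± 131) and Ldh (11.5 ± 1.53) kept their places in that order. Pglym78, the seventh in the controls, reached 468 ± 119 CPM per kilobase. It then overlapped Eno (478 ± 99.4), Gapdh2 (476 ± 119) and Pyk (438 ± 100.4). Across the 10 enzymes the control level per kilobase and the log2 fold change had a Spearman rho of -0.14, a description over genes that share the same libraries.

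**Figure D2:**
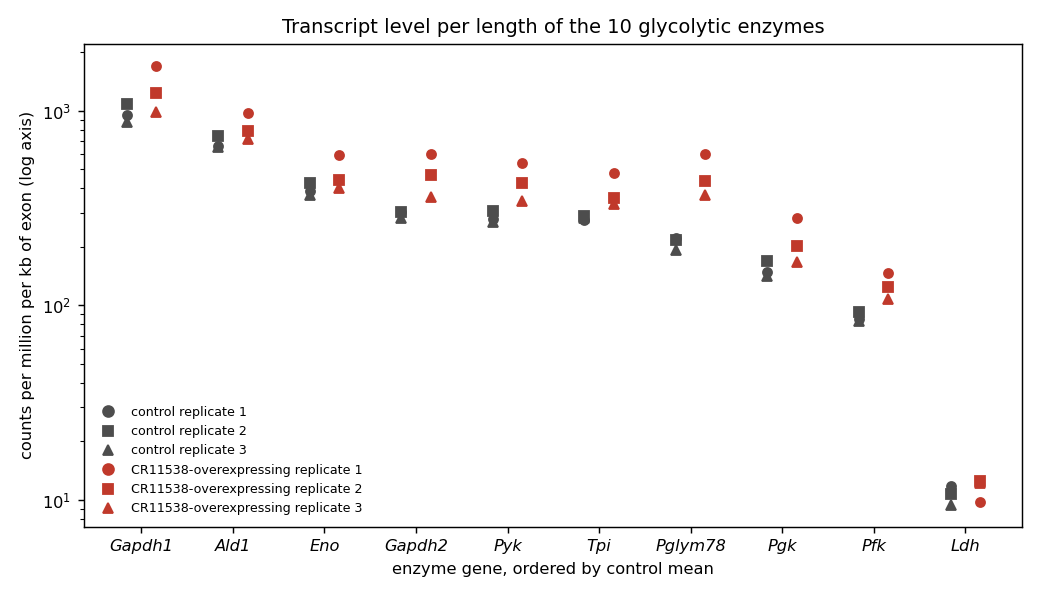
CPM per kilobase of exon (log axis) of the 10 enzymes in each library, ordered by the control mean. Gapdh1 is at 973 and Ldh at 10.6 on average in the controls, and Pglym78 moves from 211 to 468.

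The make-up of the pool followed from these unequal changes. Of the summed level per kilobase of the 10 enzymes, Pglym78 made up 5.99 to 6.66% in the controls and 9.70 to 10.1% in the CR11538-overexpressing libraries. Gapdh2 went from 8.28 to 9.06% in the controls to 9.50 to 10.4%, and Pyk from 8.38 to 8.49% to 9.02 to 9.54%. Ald1 made up 19.9 to 20.7% in the controls and 16.4 to 18.9% under CR11538 overexpression, and Eno 11.7% in every control and 9.80 to 10.6%. For these 5 genes the libraries of the genotypes did not overlap, and for Gapdh1, Tpi, Pgk, Pfk and Ldh they did. The shares depend on each other because they sum to 100%, and they were not tested.

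**Figure D3:**
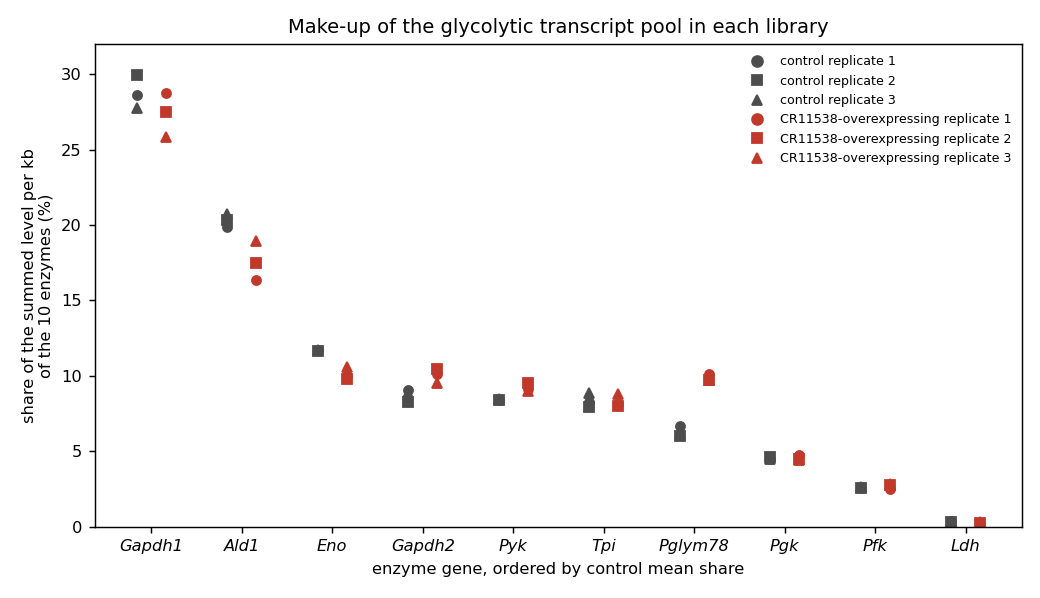
Share of each enzyme (%) in the summed level per kilobase of the 10 enzymes, for each library. Pglym78 lies at 5.99 to 6.66% in the controls and at 9.70 to 10.1% in the CR11538-overexpressing libraries, while Ald1 and Eno lie lower in the latter.

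The CR11538-overexpressing libraries differed among themselves in the same way for nearly every enzyme. Replicate 1 was the highest and replicate 3 the lowest of the genotype for 9 of the 10 enzymes, all but Ldh. Within the genotype the highest library was 1.28 times the lowest for Ldh and 1.73 times for Gapdh1, whereas among the controls these ratios were 1.05 for Tpi to 1.25 for Ldh. The median of the 10 enzymes relative to the control mean was 0.79, 0.38 and 0.23 on the log2 scale in replicates 1, 2 and 3. Medians fell in this order also for citric acid cycle genes (0.43, 0.21 and 0.08) and sugar entry genes (-0.02, -0.11 and -0.29). The pentose phosphate, pyruvate branch, gluconeogenesis, regulator and muscle lists had it too, so it was not particular to the enzymes. Lists of paralogues and of fat body, neuron, testis, accessory gland and hemocyte markers did not. Its share over all genes was not counted. The level of CR11538 itself did not follow this order, with 2333, 3325 and 3207 normalized counts in these libraries. Without replicate 1 the median log2 fold change of the enzymes was 0.29 and 6 were still called, and without replicate 3 it was 0.62 and 9 were called. Leaving out replicate 3 also took the higher calls from 7 to 8 for citric acid cycle genes and from 4 to 6 for the pyruvate and glycerol phosphate branches. The share of all genes called with a library left out was not counted. Leaving out control replicate 1, 2 or 3 left 4, 4 and 3 enzymes called, of which Pfk, Gapdh2 and Pglym78 were called each time.

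Most muscle markers rose with the enzymes, and their median fold change was larger. Fitted log2 fold changes ran from -0.17 to 2.35 over the muscle list and from 0.11 to 1.15 over the enzymes. Of 14 muscle markers tested, 12 were higher, none was lower, and the giant filament proteins sls and bt did not pass (log2 fold changes of -0.17 and 0.28). By the same rule 15.0% of all genes were higher and 14.2% lower. Act88F, the actin of the flight muscle, rose from a mean normalized count of 5693 ± 1614 to 29017 ± 9995 (SD, n = 3 each, log2 fold change 2.35, adjusted p = 0.000364). The myosin light chain genes Mlc2 and Mlc1 had log2 fold changes of 1.62 and 1.48, and the troponin T gene up one of 1.14. The median over the list was 1.14, beside 0.49 for the 10 enzymes. Summed over the list, the normalized counts ran from 132007 to 164706 in the controls and were 446686, 363687 and 264049 in CR11538-overexpressing replicates 1, 2 and 3, the same order as for the enzymes. No marker of the list was at 0, and wupA was not matched. The part of muscle transcripts in the enzymes' difference was not tested.
Within the libraries, the level per kilobase of Gapdh1 relative to the muscle myosin gene Mhc was 5.26 to 6.47 in the controls and 2.62 to 3.35 under CR11538 overexpression. That of Ald1 was 3.65 to 4.82 and 1.67 to 2.45, and that of Pyk 1.54 to 1.98 and 0.911 to 1.17. Pglym78 was the enzyme whose ratio to Mhc overlapped between genotypes among the 5 compared (1.22 to 1.43 and 0.926 to 1.26), with Pfk as the fifth (0.469 to 0.615 and 0.265 to 0.369). These ratios were chosen after the values had been seen. Mhc itself had a log2 fold change of 1.38, on a list that ran from -0.17 (sls) to 2.35 (Act88F). Ratios to Mhc therefore do not stand for muscle transcripts in general.
Lists of other tissues had medians of -0.03 to 0.38. Their counts of calls stand beside 15.0% of all genes higher and 14.2% lower. None of 6 neuron markers passed, and their summed counts were 10421 to 11099.6 in the controls and 10627 to 11249 under CR11538 overexpression. Of 5 fat body markers, the lipid droplet gene Lsd-1 (log2 fold change 1.22) and the lipoprotein gene apolpp (0.79) were higher and 3 did not pass, with a median of -0.03. The call of apolpp was lost in DESeq2 (adjusted p = 0.0570) and without control replicate 2 or 3 or CR11538-overexpressing replicate 2, which left Lsd-1 alone. Of 3 hemocyte markers tested 2 were higher (median 0.38). Of 6 gut markers 2 were higher and 2 lower, with 0 or 1 lower when any single library was left out. Of 5 testis and 5 accessory gland markers, 2 in each list were higher (medians of 0.16 and 0.15), and 1 in some settings that left out a library.

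**Figure D4:**
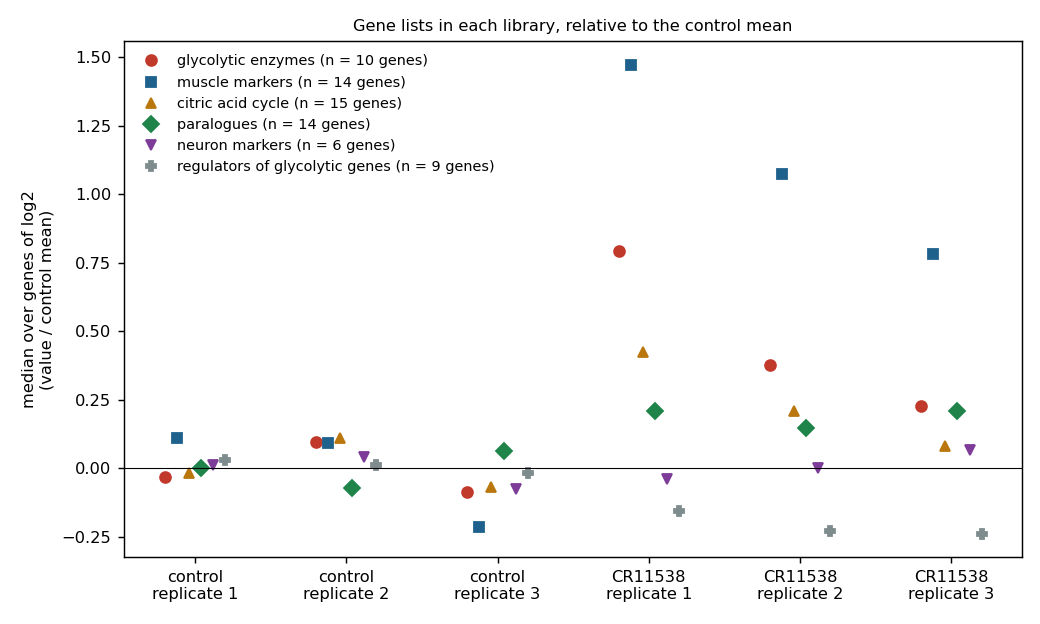
Median over the genes of each list of the log2 ratio to the control mean, for each of the 6 libraries. The enzymes stand at 0.79, 0.38 and 0.23 in CR11538-overexpressing replicates 1, 2 and 3 and the muscle markers at 1.47, 1.07 and 0.78, while the neuron markers stay between -0.07 and 0.07 in all libraries.

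The steps that feed the pathway did not move as one. Pgi, which makes the fructose 6-phosphate used by Pfk, rose from a mean normalized count of 8483 ± 507 to 11937 ± 2197 (SD, n = 3 each, log2 fold change 0.49, adjusted p = 0.0149), a call lost when control replicate 1 or 3 was left out (0.0568 and 0.0573). The hexokinase gene Hex-C had 1809, 1800.0 and 2011 normalized counts in control flies and 1306, 1070.4 and 849 under CR11538 overexpression, and fell by 0.80 on the log2 scale (adjusted p = 0.00225). Hex-A, also a hexokinase gene, had 5608 ± 279 and 5940.2 ± 549.6 normalized counts and did not pass (log2 fold change 0.08, 95% confidence interval -0.10 to 0.27). Pfrx, whose enzyme makes and removes the Pfk activator fructose 2,6-bisphosphate, fell by 0.32 (adjusted p = 0.0147, or 0.0656 without control replicate 2). The sugar transporter genes Glut1 and Tret1-1 did not pass (log2 fold changes of -0.09 and -0.20). Of 4 tested gluconeogenesis genes, G6P had a value of -0.31 on the log2 scale (adjusted p = 0.0395), a call that was lost in DESeq2 (adjusted p = 0.127), with library size alone (0.0513), with the replicate block (0.0620) and without any single library (0.0603 to 0.118). The genes fbp, Pepck2 and PCB did not pass.

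The glycerol 3-phosphate shuttle, which branches off at the triose step, rose at both of its enzymes. Gpdh1 had 6505, 6096 and 5969 normalized counts in control flies and 24696, 16775 and 12738 under CR11538 overexpression (log2 fold change 1.55, standard error 0.20, adjusted p = 0.000620). This is larger than the fitted value of any of the 10 glycolytic enzymes, and the ratio of Gpdh1 to Tpi per kilobase was 0.358 to 0.400 in the controls and 0.645 to 0.868 in the CR11538-overexpressing libraries. Gpo1 rose from a mean normalized count of 6220.1 ± 665 to 9779 ± 2495 (SD, n = 3 each, log2 fold change 0.65, adjusted p = 0.0155, or 0.0663 without control replicate 3). At the entry to the citric acid cycle, the pyruvate dehydrogenase subunit genes Pdha and Pdhb had log2 fold changes of 0.68 and 0.34 (adjusted p of 0.00705 and 0.0493). The call of Pdhb was lost without any control library and without CR11538-overexpressing replicate 1 or 2 (adjusted p of 0.0747 to 0.154), and its log2 fold change was 0.20 without CR11538-overexpressing replicate 1. In all, 4 of 10 tested genes of these branches were higher and none was lower, with 2 higher without control replicate 3. Among all genes tested 15.0% were higher and 14.2% lower. The kinase gene Pdk, the pyruvate carrier gene Mpc1 and the transaminase genes Alat and Got1 were among those that did not pass.
Of 15 tested genes of the citric acid cycle 7 were higher and none was lower, with a median log2 fold change of 0.20. For this list and the pentose phosphate genes below, the shares over all genes were 15.0% higher and 14.2% lower. The citrate synthase gene kdn rose from a mean normalized count of 12802 ± 1257 to 25545 ± 6591 (log2 fold change 0.997, adjusted p = 0.00242), Mdh2 by 0.63 and Idh3a by 0.57 on that scale. The 4 succinate dehydrogenase genes SdhA, SdhB, SdhC and SdhD did not pass (-0.01 to 0.20). Leaving out control replicate 1, 2 or 3 left 4, 4 and 1 of the 15 called, the last being kdn. Of 7 pentose phosphate genes, Pgd, Tkt and Taldo were higher (1.04, 0.57 and 0.46) and Zw, the enzyme at the entry to that pathway, stood at -0.01 (adjusted p = 0.937). Leaving out control replicate 2 left Pgd alone called, and the call of Taldo was lost without any control library and without CR11538-overexpressing replicate 2 (adjusted p of 0.0629 to 0.115). Without CR11538-overexpressing replicate 1 the log2 fold change of Taldo was 0.30.

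**Figure D5:**
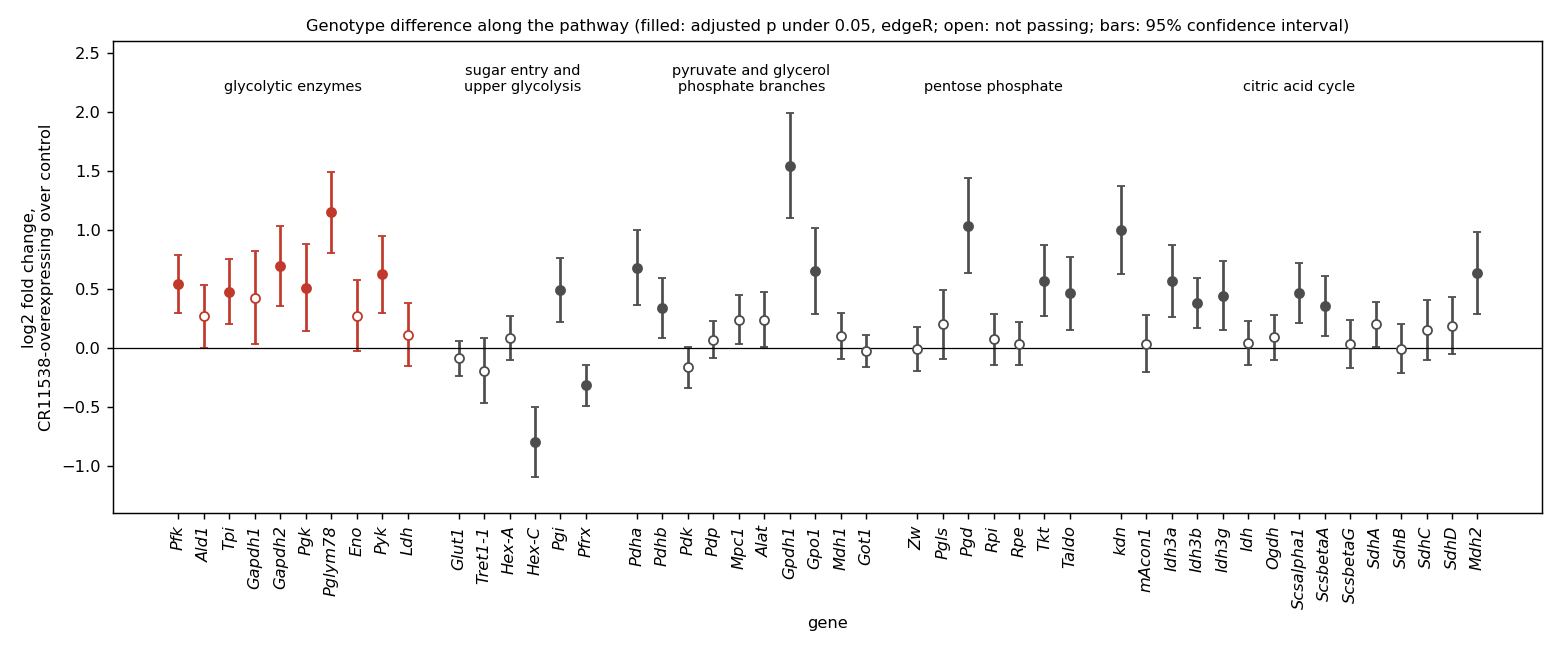
Log2 fold change (CR11538-overexpressing over control) with its 95% confidence interval for the 10 glycolytic enzymes (red) and for genes of neighbouring pathways (grey), with filled points at an adjusted p under 0.05. Gpdh1 (1.55), Pglym78 (1.15), Pgd (1.04) and kdn (0.997) are the highest points, and Hex-C (-0.80) the lowest.

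Paralogues of glycolytic, hexokinase and glycerol 3-phosphate dehydrogenase genes mostly had log2 fold changes above 0, 12 of 14. Of 14 tested, 6 were higher, 1 was lower and 7 did not pass, with a median log2 fold change of 0.20. The shares over all genes were 15.0% higher and 14.2% lower. The hexokinase gene Hex-t1 rose from a mean normalized count of 216 ± 15.1 to 331 ± 15.8 (SD, n = 3 each, log2 fold change 0.62, adjusted p = 0.00160). CG11249 and CG12229 had log2 fold changes of 0.39 and 0.31, and CG7069 one of -0.01 (adjusted p = 0.908). Ald2 had 1978 ± 30.7 and 2128 ± 128 normalized counts and did not pass (log2 fold change 0.11, adjusted p = 0.249). Gpdh3 fell from a mean normalized count of 7652 ± 185 to 6384 ± 227 (log2 fold change -0.26, adjusted p = 0.0144), and no paralogue was lower without control replicate 1 or 3 or CR11538-overexpressing replicate 2. In the CR11538-overexpressing replicates 1, 2 and 3 the median of the list was 0.21, 0.15 and 0.21 relative to the control mean, without the order seen for the enzymes.

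Known regulators of glycolytic genes were lower or did not pass. The test called 4 of the 9 lower and none higher, beside 14.2% of all genes lower and 15.0% higher. sug, a zinc finger factor of the sugar response, fell from a mean normalized count of 1598 ± 158 to 806 ± 87.3 (SD, n = 3 each, log2 fold change -0.99, adjusted p = 0.000167). foxo, the factor repressed by insulin signalling, fell by 0.50 on the log2 scale (adjusted p = 0.000686). Hph, the prolyl hydroxylase of the hypoxia factor Sima, fell by 0.24, and the sugar sensor gene Mondo by 0.21 (adjusted p of 0.0116 and 0.0350). Mondo was not called by DESeq2 (adjusted p = 0.0643), nor when any single library other than CR11538-overexpressing replicate 1 was left out (0.0580 to 0.118). ERR had 236 ± 6.46 and 191 ± 27.5 normalized counts and did not pass (adjusted p = 0.0860), and sima, tgo, bigmax and crc did not pass either.

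The profiles most like the mean of the enzymes included subunits of mitochondrial complexes. Likeness was the root mean square difference from the mean centred log2 profile of the 9 enzymes with at least 1000 normalized counts, over the 6 libraries and 3484 other genes of that level. The nearest were ATPsynbeta (0.010) and ATPsyndelta (0.039), subunits of the ATP synthase, ND-ACP (0.026) and ND-15 (0.027), subunits of respiratory complex I, and CG7430 (0.036). ATPsynbeta had 43546, 46307 and 41487 normalized counts in control flies and 80487, 60230.5 and 51821 under CR11538 overexpression, with the same order of the latter as for the enzymes. The log2 fold changes of these 5 genes were 0.49 to 0.55. Since the genes were selected for this likeness over the same 6 libraries, their fold changes and library order follow from the selection and were not tested, and they say nothing of shared function or control.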

How the data were processed

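Adult male flies of both genotypes were sequenced 12 h after M. luteus injection, with 3 libraries each and 17040432 to 19652500 counts per library. The authors selected poly(A) RNA. The submitters' processing notes name dm6, HISAT2 2.0.5 for alignment and featureCounts 1.5.0-p3 for the deposited counts, which are unnormalized, 1 column per library. Which strand setting and gene models were used in counting is not given in the sources used here, so reads of genes on opposite strands may not have been told apart. Gene names, positions and exon lengths were taken from Ensembl 115 (dm6), which held 17252 of the 17558 identifiers. The listed genes muc, Fum1, wupA and FASN1 were not matched and are not reported here.

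Genotypes were compared with edgeR 4.0.16 (R 4.3.3): filterByExpr, TMM and the quasi-likelihood test, with genotype as the only term and Benjamini-Hochberg adjustment over all 13159 genes. Standard errors are the unshrunk log2 coefficient divided by the square root of F. Normalized counts are TMM-scaled to the mean library size. Levels per kilobase are TMM-scaled CPM divided by the merged exon length. A count of 0 allows a share of up to 1.76e-05% in the shallowest library (3 counts, counting error only).

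The enzymes and the 14 other lists were chosen with earlier results of these data known. All 10 enzymes are named, with up to 4 members per other list by lowest adjusted p and the 5 nearest profiles, whose reference left out Ldh because its mean was below 1000 counts. Genes that made up a count of 5 or fewer, or that a pathway step needed, were also named after their values were seen. Alternatives were DESeq2 1.42.0, DESeq2 size factors or library size alone, other filters on low counts, glmTreat at a fold of 2, the replicate number as a block and each library left out. The scripts were tested on simulated data. No promoter or protein sequence is shown.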

Additional observations from a re-analysis of the deposited data

How the results depend on the processing

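With DESeq2 in place of edgeR, with DESeq2 size factors or library size alone, with no filter on low counts and with at least 10 counts in every library, Pfk, Tpi, Gapdh2, Pgk, Pglym78 and Pyk were called each time and no other enzyme was. Leaving out a library gave 3 to 9 enzymes higher and none lower, with a median log2 fold change of 0.29 to 0.62. The count was 3 without control replicate 3. For the enzymes and the other lists alike, calls with a library left out have no share over all genes beside them. Tested against a fold of 2 with glmTreat, 0 enzymes were called, also at an unadjusted p under 0.05, where the smallest p was 0.0624. All 10 fitted log2 fold changes were above 0 in each of these settings. The scaling moved the median of all genes by at most 0.02 on the log2 scale. Library numbers are shared by the genotypes in the labels. Same-numbered libraries had correlated deviations from the group means of 0.149, 0.062 and 0.135 over 11245 genes, and each library correlated best with its own number, a hint of pairing from the data. The numbers were not taken as pairs because a correlation was below 0.1 and no label says what a number shares. With the replicate number as a block, 6 enzymes were higher, none was lower and the median was 0.47. Ldh had the fewest raw counts of the 10 enzymes, 320 to 462 per library. With 3 libraries per genotype, the 95% intervals of Ald1, Gapdh1 and Eno were close to or across 0, and why was not tested. The cause of the calls lost on leaving out libraries was not tested.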

Other observations

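RpL32 (rp49) and Gapdh are common reference genes for RT-qPCR in flies. RpL32 had 13608 ± 633 normalized counts in control flies and 11910.4 ± 209 under CR11538 overexpression (SD, n = 3 each), without overlap, and a log2 fold change of -0.19 that did not pass edgeR's test (adjusted p = 0.0626). The ratio of Gapdh1 to RpL32 per kilobase was 1.07, 1.13 and 0.989 in control replicates 1, 2 and 3 and 2.09, 1.56 and 1.24 in the CR11538-overexpressing ones. That of Gapdh2 to RpL32 was 0.339, 0.314 and 0.317 in the controls and 0.735, 0.593 and 0.457 in the CR11538-overexpressing libraries. The genotypes did not overlap for either ratio, which were chosen after the values had been seen and were not tested.

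Pepck1, a gluconeogenesis enzyme gene, was listed at 0 in all 6 libraries. CG45087 has the same start and end in the annotation and was also listed at 0 in all 6, so no level of either gene is read from these counts. Pepck2, next to them, had 407 ± 86.6 and 374 ± 42.6 normalized counts.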
